A study of Danio rerio with 5 samples.

Results

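Immunoglobulin cell adhesion molecules are surface proteins built from immunoglobulin domains, often followed by fibronectin type III repeats, through which growing axons bind each other and their surroundings. Some bind copies of themselves on a neighbouring cell, others bind partners of the same superfamily, and together they hold axons in bundles and take part in the choice of targets. Alcam, also called neurolin or DM-GRASP, is long known from the surface of zebrafish motor neurons, and Cntn2, also called Tag1, is needed in zebrafish for the migration of facial branchiomotor neurons. The genes described here are those matched to 10 zebrafish symbols, namely alcama, alcamb, ncam1a, ncam1b, nrcama, cntn1a, cntn1b, cntn2, dscama and chl1a. A match ignored upper and lower case, and a name in capitals that lacks the final a or b also counted. This gave 11 of the 31953 genes counted.

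The cells were vagus motor neurons from zebrafish embryos of 28 to 30 hours after fertilisation, and their RNA was sequenced. All embryos carried the transgene Tg(isl1:Kaede), in which regulatory sequence of isl1, a gene of motor and some sensory neurons, drives Kaede, a fluorescent protein that light turns from green to red. Light converted Kaede in neurons of the vagus group, either at its anterior end or at its posterior end, the hindbrain was dissected and dissociated, and red cells were picked by hand, 100 for each library. There were 2 anterior libraries, called B and G by the second letter of their titles, and 3 posterior libraries, called B, G and R; no treatment or further genotype separated the groups. The comparison asked which genes differ between the ends of this population, whose axons leave in different branches of the vagus nerve. The labels do not say whether the libraries came from separate embryos, so the p-values measure the spread between these libraries, which may be technical.

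The libraries held 14932562 to 20088585 reads in genes, 69.0% to 72.5% of the reads counted, and detected 10463 to 13589 genes. The fewest genes were detected in posterior B. ISL1 (ENSDARG00000004023), whose regulatory sequence drives the Kaede by which the cells were picked, lay between 1805 and 2381 CPM, with the groups overlapping. Other motor neuron markers varied more between libraries. CHAT, for the enzyme that makes acetylcholine, had 0 CPM in posterior B and 5.43 to 36.1 CPM elsewhere, TBX20 had 3.30 CPM in anterior B and 47.5 to 152 CPM elsewhere, and SLC18A3, for the vesicular transporter of acetylcholine, ran from 11.2 CPM in posterior B to 139.5 CPM in anterior G. CPM is the read count scaled to a library total of 1e+06 with TMM (trimmed mean) factors of 0.977 to 1.04. The 3 leukocyte markers had no read in any library, and the 7 interneuron markers summed to 0.059 and 71.8 CPM in anterior B and G and to 0.16 to 21.4 CPM in the posterior libraries, with both genes named SLC17A6 at 0 throughout. Of the 15 progenitor and cycling markers, 14 were read in every library, and 1 of the genes named FABP7 had 0 reads throughout. They summed to 8957 and 5379 CPM in anterior B and G and to 6285 to 7863 CPM in posterior libraries. Glia markers summed to 2297 and 1863 CPM in anterior B and G and 1316 to 1489 CPM in posterior libraries. Neural crest and otic markers summed to 144.5 and 363 CPM against 35.6 to 145.5 CPM. Skin and vessel markers summed to 60.8 and 97.05 CPM in anterior B and at most 5.12 CPM elsewhere. The vessel sum in anterior B was 1 gene, kdrl. Of the 6 blood and vessel genes 4 had 0 reads in all libraries, as had 2 of the 6 skin genes. Muscle, and notochord and cartilage, markers summed to 46.8 and 41.1 CPM in posterior R and at most 12.0 CPM elsewhere.

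Of the 11 genes, 10 had at least 1 read and 8 had enough reads to be tested. The 8 tested genes were read in every library. The genes cntn2 and cntn1a were higher in anterior cells. ALCAM, 1 of the genes named NCAM1 and 1 of the genes named DSCAM were higher in posterior cells. This DSCAM gene was tested through its posterior libraries alone, so its direction was built in. In these 5 genes the libraries of the groups did not overlap. Of all genes tested, 21.9% had groups apart, 9.57% with posterior above and 12.3% with anterior above. Of all 11827 genes tested, 0 (0%) passed the adjusted threshold of 0.05 in the edgeR quasi-likelihood test, and so none of these did. In bulk libraries, fewer cells that express a gene and less RNA of it per cell cannot be told apart.

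**Figure D1:**
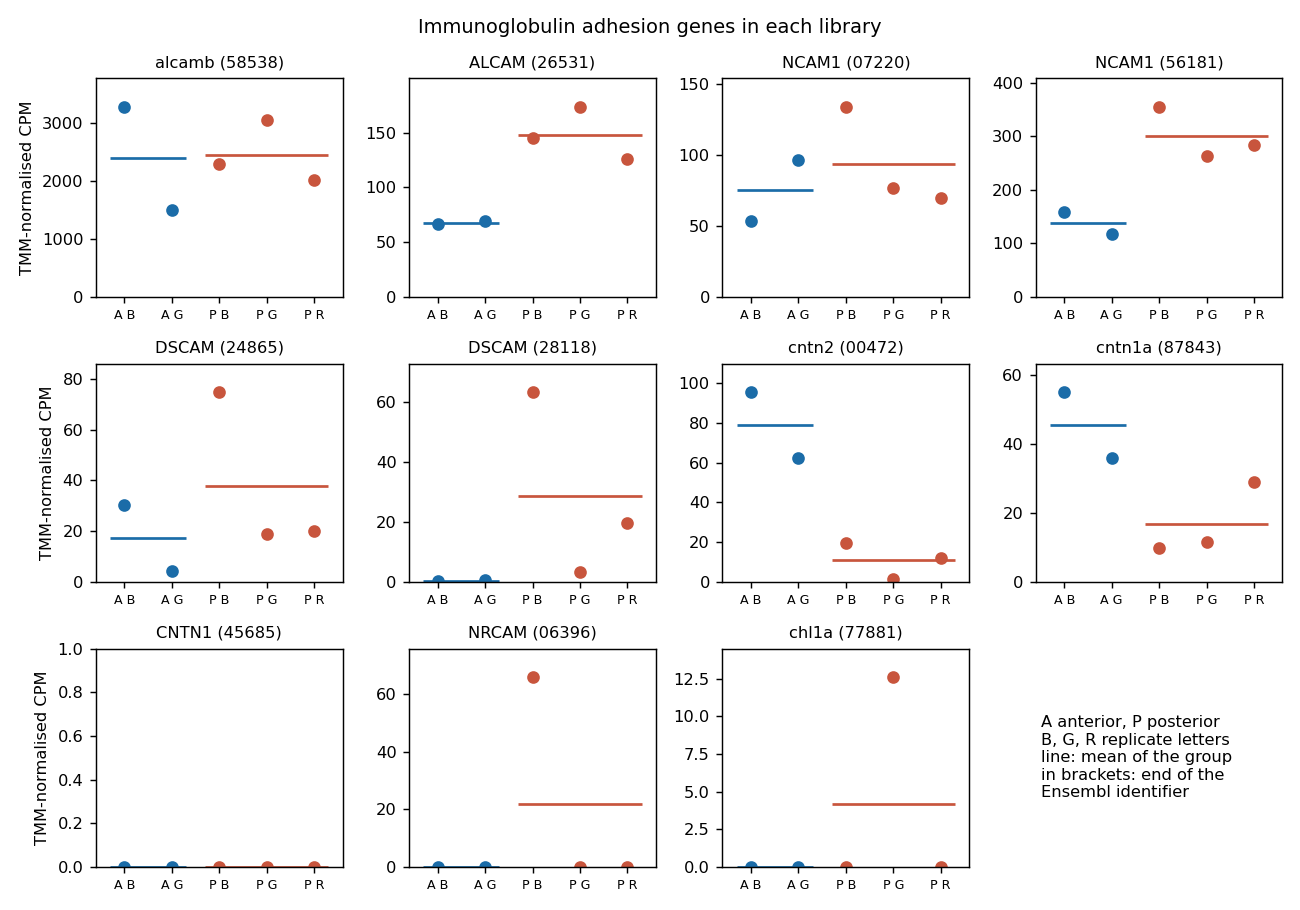
TMM-normalised CPM (y axis, linear, each panel with its own scale) of the 11 genes in the 2 anterior (blue) and 3 posterior (red) libraries, with a line at the mean of each group and the last digits of the identifier in the title. ALCAM, NCAM1 (ENSDARG00000056181) and DSCAM (ENSDARG00000028118) lie higher in all posterior libraries, cntn2 and cntn1a lie higher in both anterior libraries, and NRCAM and chl1a were read in 1 library each.

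Alcam proteins bind copies of themselves on neighbouring axons. The gene alcamb (ENSDARG00000058538) had 3284 and 1504 CPM in anterior B and G and 2297, 3050 and 2010 CPM across posterior B, G and R. Both extremes were anterior libraries, which differed from each other 2.18-fold, and the posterior libraries lay between them. The log2 fold change, given throughout as posterior minus anterior, was 0.04 ± 0.31 (SE; edgeR quasi-likelihood test, adjusted p 0.994). Its sign turned negative without anterior G (-0.43) and without posterior G (-0.14), and the value rose to 0.70 without anterior B.

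ALCAM (ENSDARG00000026531), the gene matched to alcama, had 66.1 and 69.3 CPM in anterior B and G and 145, 173.5 and 126 CPM across posterior B, G and R. The anterior libraries were nearly equal, at 1.05-fold of each other, and the lowest posterior library was 1.82-fold above the higher anterior one. Anterior cells averaged 67.7 ± 2.31 CPM (SD, n = 2) and posterior cells 148 ± 24.0 CPM (SD, n = 3). The log2 fold change was 1.12 ± 0.57 (SE; edgeR unadjusted p 0.0708, adjusted p 0.726). It ran from 1.00 to 1.26 over the 13 alternative settings, with no change of sign. Of the reads of the Alcam pair, ALCAM took 1.97% and 4.41% in anterior B and G and 5.94%, 5.38% and 5.89% in posterior B, G and R. This share needs no scaling between libraries, and it was higher in all posterior libraries, with anterior G and posterior G nearest. It uses the same ALCAM reads and also moves with alcamb, so it is no separate result.

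Ncam is a homophilic adhesion protein of neurons that can carry long chains of polysialic acid, which loosen adhesion. The table of names gives NCAM1 for both zebrafish duplicates, so the identifiers tell them apart and neither can be called ncam1a or ncam1b here. The gene ENSDARG00000056181 had 157 and 118 CPM in anterior B and G and 355, 263 and 283 CPM across posterior B, G and R. All posterior libraries lay above both anterior ones, by 1.67-fold between the nearest, while libraries of the same group differed at most 1.35-fold. The log2 fold change was 1.13 ± 0.45 (SE; edgeR unadjusted p 0.0284, adjusted p 0.726), and it ran from 0.92 to 1.35 over the 13 settings. The unadjusted p was under 0.05 in 9 of them. It was not without anterior G (edgeR unadjusted p 0.113), in the 4 libraries without posterior R (edgeR unadjusted p 0.0546, which counts as 2 of the 13) or with the replicate block in those 4 libraries (edgeR unadjusted p 0.0689).

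The other NCAM1 (ENSDARG00000007220) had 53.4 and 96.6 CPM in anterior B and G and 134, 76.4 and 69.7 CPM across posterior B, G and R. The groups overlapped, and posterior B alone lay above the higher anterior library. Its log2 fold change was 0.29 ± 0.64 (SE; edgeR adjusted p 0.956), and it turned to -0.064 without anterior B and -0.025 without posterior B. This gene took 25.4% and 45.1% of the reads of the NCAM1 pair in anterior B and G and 27.4%, 22.5% and 19.8% in posterior B, G and R. Anterior G stood apart, with the highest share.

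**Figure D2:**
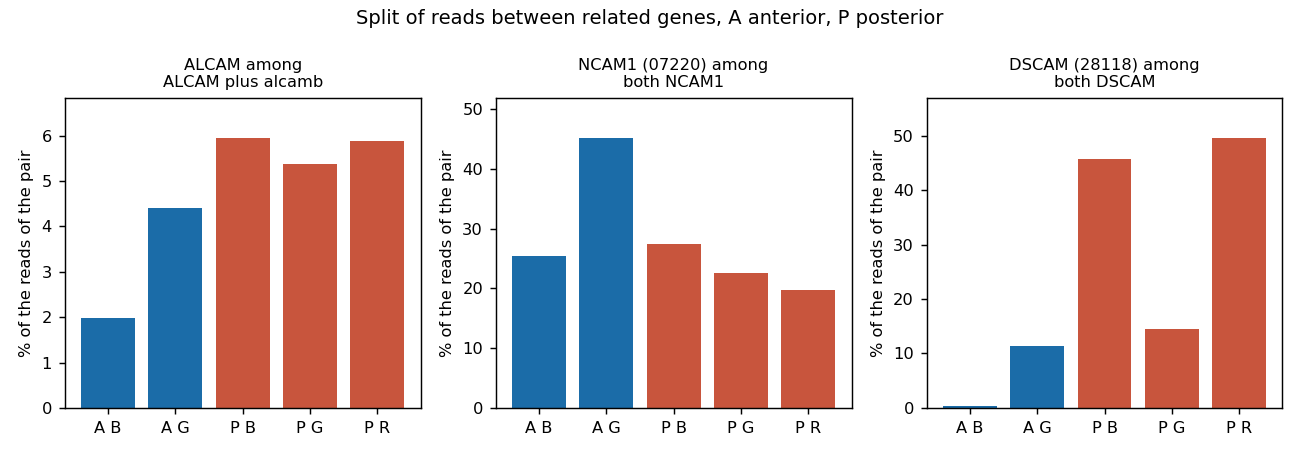
Share in percent of the reads of a gene pair (y axis, from 0) that fell on the first gene, in each anterior (blue) and posterior (red) library. ALCAM took a larger share in all posterior libraries, from 5.38% to 5.94%, than in the anterior ones, the NCAM1 share was highest in anterior G at 45.1%, and the DSCAM share ran from 0.388% in anterior B to 49.5% in posterior R.

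Contactins have no domain inside the cell and are held at the membrane by a lipid anchor, so that they act together with partner proteins in the same membrane. The gene cntn2 (ENSDARG00000000472) had 95.6 and 62.1 CPM in anterior B and G and 19.5, 1.46 and 12.1 CPM across posterior B, G and R. Both anterior libraries lay above all posterior ones, by 3.19-fold between the nearest, while the posterior libraries differed 13.4-fold among themselves. In reads, the posterior values were 300, 23 and 229. Anterior cells averaged 78.8 ± 23.7 CPM (SD, n = 2) and posterior cells 11.0 ± 9.05 CPM (SD, n = 3), a level 7.17-fold higher in anterior cells.

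The log2 fold change of cntn2 was -2.83 ± 0.92 (SE), with the smallest p of these genes (edgeR unadjusted p 0.00906, adjusted p 0.726). It kept its sign in all 13 settings, from -3.41 to -2.33, and the unadjusted p was under 0.05 in 11 of them, with every single library left out among these. The exceptions were the legacy form of the test (unadjusted p 0.0680) and the replicate letter as a block over 4 libraries (edgeR unadjusted p 0.0609, log2 fold change -3.01).

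The gene cntn1a (ENSDARG00000087843), for the contactin also called F3, had 55.0 and 35.9 CPM in anterior B and G and 9.80, 11.5 and 28.8 CPM across posterior B, G and R. Both anterior libraries lay above the posterior ones, by a narrow 1.25-fold over posterior R. The log2 fold change was -1.37 ± 0.92 (SE; edgeR unadjusted p 0.163, adjusted p 0.738). It stayed negative in all 13 settings, from -2.05 to -1.05, and the unadjusted p was under 0.05 in 0 of them. CNTN1 (ENSDARG00000045685), the gene matched to cntn1b, had 0 reads in all 5 libraries, which allows up to 0.149 to 0.195 CPM in a library at a floor of 3 counts. That floor covers counting error only.

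In flies, a Dscam protein lets branches of a neuron tell themselves from those of others. The table of names gives DSCAM for more than 1 gene, and which of them is dscama is not given there. Either may be dscamb, which is not among the chosen symbols, yet both are counted among the tested genes. The gene ENSDARG00000028118 had 0.12 and 0.54 CPM in anterior B and G and 63.3, 3.17 and 19.5 CPM across posterior B, G and R. The anterior values were 2 and 11 reads, and the posterior ones 975, 50 and 370. All posterior libraries lay above the anterior ones, yet they differed 20.0-fold among themselves. The log2 fold change was 6.30 ± 2.81 (SE; edgeR unadjusted p 0.0460, adjusted p 0.726). This gene entered the test through its posterior libraries alone, since both anterior libraries were under the minimum of 0.574 CPM, so a difference in this direction was built into its being tested. Its log2 fold change ran from 5.10 without posterior B to 7.79 without anterior G, and the unadjusted p was under 0.05 in 5 of the 13 settings and at most 0.129. DESeq2 gave it an adjusted p of 0.0110, and the other settings gave adjusted p-values of 0.663 to 0.998.

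The other DSCAM (ENSDARG00000024865) had 30.3 and 4.21 CPM in anterior B and G and 74.8, 18.8 and 19.9 CPM across posterior B, G and R. The groups overlapped, with anterior B above posterior G and R. Its log2 fold change was 1.18 ± 1.14 (SE; edgeR unadjusted p 0.323, adjusted p 0.851). It was 0.27 without anterior G, 0.28 without posterior B and 3.13 without anterior B. Posterior B was the highest library for both DSCAM genes. Of the reads of the pair, ENSDARG00000028118 took 0.388% and 11.5% in anterior B and G and 45.8%, 14.4% and 49.5% in posterior B, G and R, so that posterior G was close to anterior G.

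Proteins of the L1 type, to which NrCAM and Chl1 belong, reach into the cell and bind ankyrin, a link to the spectrin skeleton. NRCAM (ENSDARG00000006396) had 1014 reads in posterior B, or 65.8 CPM, and 0 reads in the other 4 libraries. The gene chl1a (ENSDARG00000077881) had 199 reads in posterior G, or 12.6 CPM, and 0 reads elsewhere. Neither gene passed the filter of the test, and no group holds more than 1 library with a read. In the settings whose filter let them in, 4 for NRCAM and 3 for chl1a, the unadjusted edgeR p was 0.103 to 0.246 and 0.282 to 0.437. Such genes occurred in every library but were a small share of the genes at these levels. In posterior B, 9 genes reached 50 CPM with 0 reads in every other library, 0.253% of 3561 genes at that level. In posterior G, 111 genes reached 10 CPM in this way, 1.47% of 7555. In the reverse case, of the genes that averaged 10 to 30 CPM over 4 libraries, 15.0% to 37.9% had 0 reads in the remaining one, depending on the library.

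In the 8 tested genes the log2 fold change was above 0 in 6 and under 0 in 2, with a median of 0.71, where all 11827 genes tested had a median of -0.055 and 47.9% of them were above 0. The median was 0.20 over 8 genes without posterior B and 1.22 over 10 genes without anterior B. The 10 include NRCAM and chl1a, at 11.5 and 9.13, each read in 1 posterior library only. They entered through that level alone, so the higher median was partly built in. An unadjusted p under 0.05 was found for 3 of the 8, cntn2, NCAM1 (ENSDARG00000056181) and DSCAM (ENSDARG00000028118), against 6.49% of all genes tested. By direction, the share of all genes was 2.28% for higher in posterior cells, where 2 of these genes fell, and 4.21% for higher in anterior cells, where 1 fell. The groups did not overlap in 5 of the 8, against 21.9% of all genes tested. Of all genes, 9.57% had every posterior library above the anterior ones, as 3 of these genes did, and 12.3% had every anterior library above, as 2 of these genes did. The genes were chosen with earlier results of these libraries known, and DSCAM (ENSDARG00000028118) was tested because of its posterior level, so these shares describe the set and are no test of it. The count of 3 was 1 without posterior R, where cntn2 was left and 524 of all 10770 genes tested had an unadjusted p under 0.05. An adjusted p under 0.05 was found for 0 of the 8 genes in edgeR and for 1 in DESeq2, which gave one to 2.52% of the 9984 genes for which it computed it.

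**Figure D3:**
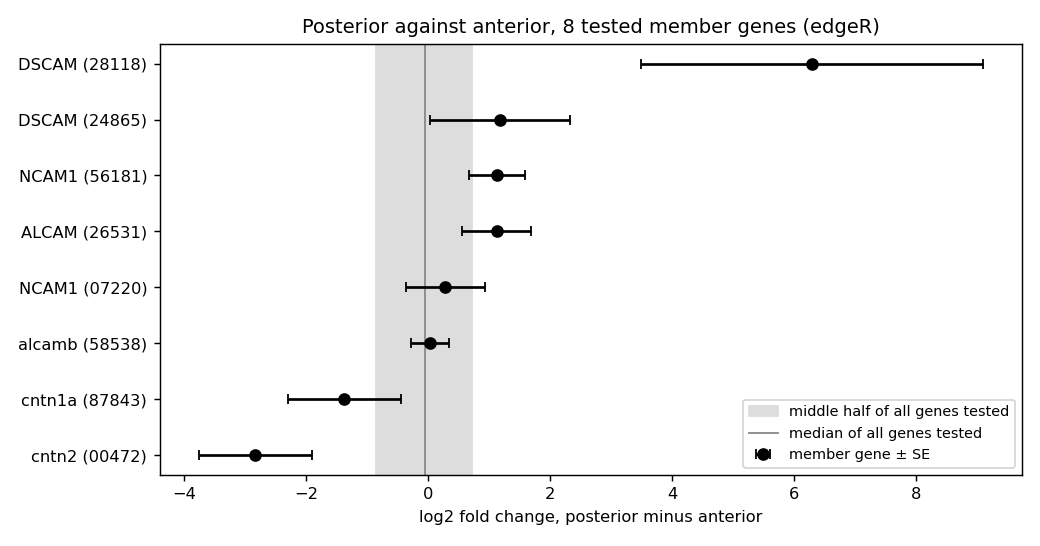
Log2 fold change of posterior against anterior cells (x axis) for the 8 tested genes, with bars of 1 SE from the edgeR fit. The grey band spans the quartiles of all 11827 genes tested, from -0.85 to 0.73, with the line at their median of -0.055; cntn2 at -2.83 and DSCAM (ENSDARG00000028118) at 6.30 lie farthest from it, and alcamb at 0.04 lies on it.

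Other adhesion genes of the superfamily lay on both sides too. A list of 66 symbols, covering further L1-type genes, contactins, sidekicks, SynCAM, IgLON, nectin and netrin-receptor relatives, matched 57 genes, of which 41 had a read and 33 could be tested. Posterior cells had the higher level in 13 and anterior cells in 20, and the median log2 fold change was -0.38. The unadjusted edgeR p was under 0.05 for 5 genes, of which 2 had the higher level in posterior cells, and the adjusted p was under 0.05 for 0. The groups did not overlap in 8 genes, with the posterior libraries above in 2 and the anterior ones above in 6. For comparison, the shares of all genes were 6.49% with such a p and 21.9% with groups apart, so the list stood near the background in the latter.

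Among these, L1-type genes differed in direction. The gene l1cama (ENSDARG00000007149), for the L1 protein that holds axons in bundles, had 59.5 and 50.9 CPM in anterior B and G and 0, 6.72 and 1.06 CPM across posterior B, G and R, so that all posterior libraries were low (edgeR unadjusted p 0.00349, adjusted p 0.726). In contrast, chl1b (ENSDARG00000103109), the duplicate of chl1a, had 106 and 122 CPM in anterior B and G and 243, 287 and 260 CPM across posterior B, G and R. Its log2 fold change was 1.21 ± 0.47 (SE; edgeR unadjusted p 0.0238, adjusted p 0.726). The libraries of each group lay close together and the groups were clearly apart, while chl1a itself was read in posterior G only. The other L1 gene, l1camb (ENSDARG00000015025), overlapped between groups, with 0 and 35.3 CPM for anterior B and G and 0.52 to 23.3 CPM in the posterior ones.

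BOC (ENSDARG00000074335), a co-receptor for Hedgehog proteins, had 30.0 and 31.1 CPM in anterior B and G and 138, 90.4 and 68.9 CPM across posterior B, G and R (edgeR unadjusted p 0.0413, adjusted p 0.726). The synaptic adhesion gene CADM2 (ENSDARG00000009930) had 17.4 and 32.1 CPM for anterior B and G and 0, 0 and 5.22 CPM across posterior B, G and R (edgeR unadjusted p 0.0358, adjusted p 0.726). For nectin3b (ENSDARG00000006604) the anterior values were 90.4 and 16.1 CPM and the posterior ones 0, 13.5 and 1.32 CPM, so anterior G and posterior G were close (edgeR unadjusted p 0.0207, adjusted p 0.726). BOC was thus higher in posterior and the other 2 higher in anterior libraries.

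**Figure D4:**
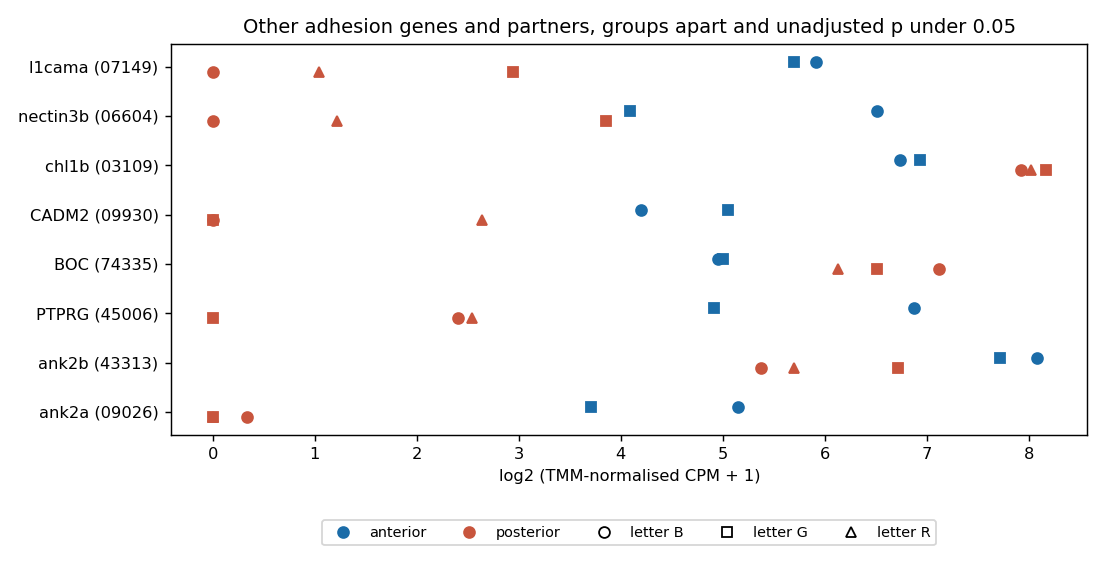
Log2 of TMM-normalised CPM plus 1 (x axis) in each library for the 8 list genes whose groups did not overlap and whose unadjusted p was under 0.05; colour gives the group, the marker shape the replicate letter, and equal values lie on top of each other. The posterior points lie to the right for chl1b and BOC and to the left for the other genes, several of which had 0 reads in a posterior library.

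Partners of these proteins were counted next. A list of 51 symbols for polysialyltransferases, ankyrins and spectrins, membrane linkers, Fyn and phosphatases, contactin-associated proteins, extracellular ligands, FGF receptors, sheddases and Pak kinases matched 49 genes, of which 35 were tested. Posterior cells had the higher level in 10 and anterior cells in 25, and the median log2 fold change was -0.45. The unadjusted edgeR p was under 0.05 for 4 genes, against 6.49% of all genes, and the adjusted p for 0. Of the 4, ank2a, ank2b and PTPRG (ENSDARG00000045006) had the higher level in anterior cells, and FGFR2 (ENSDARG00000058115), whose groups overlapped, in posterior cells.

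Ankyrins bind the inner end of L1-type proteins. The gene ank2b (ENSDARG00000043313) had 270.4 and 210.1 CPM in anterior B and G and 40.6, 104 and 50.9 CPM across posterior B, G and R. Both anterior libraries were above all posterior ones, with a log2 fold change of -1.89 ± 0.56 (SE; edgeR unadjusted p 0.00567, adjusted p 0.726). Its duplicate ank2a (ENSDARG00000009026) had 34.4 and 12.0 CPM for anterior B and G and 0.26, 0 and 0 CPM across posterior B, G and R (edgeR unadjusted p 0.0262, adjusted p 0.726). It entered the test through its anterior libraries alone, so this direction was built into its being tested. CADM2 reached the minimum of the filter in both anterior libraries but, of the posterior ones, only in R, at 5.22 CPM. Its posterior libraries alone could not have let it into the test, so its higher anterior level was partly built in too. The other ankyrins overlapped between groups, ANK3 at 28.6 and 32.7 CPM against 24.3 to 31.9 CPM and ank3b at 29.9 and 1.78 CPM against 0.58 to 3.93 CPM. PTPRG, for a receptor phosphatase that binds contactins, had 117 and 29.2 CPM for anterior B and G and 4.28, 0 and 4.80 CPM across posterior B, G and R (edgeR unadjusted p 0.00218, adjusted p 0.683). In the second gene of that name (ENSDARG00000060123) the groups overlapped.

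The enzymes that put polysialic acid on Ncam were not higher in posterior libraries. ST8SIA4 (ENSDARG00000103600) had 109 and 129 CPM in anterior B and G and 42.3, 48.0 and 62.4 CPM across posterior B, G and R, with the groups apart and a log2 fold change of -1.21 ± 0.61 (SE; edgeR unadjusted p 0.0709, adjusted p 0.726). For ST8SIA2 (ENSDARG00000018788) the values were 132 and 251 CPM against 52.8, 112 and 251 CPM, and the groups overlapped. Of the 6 genes for contactin-associated proteins, the membrane partners of contactins, 3 had no read in any library. Only 1, CNTNAP2 (ENSDARG00000074558), could be tested. Its groups overlapped, with 902 reads in posterior R and at most 270 elsewhere. The log2 fold change was 2.2 ± 1.6 (SE, edgeR unadjusted p 0.200, adjusted p 0.760). The 6 summed to 0.65 and 9.21 CPM in anterior B and G and 0, 17.1 and 75.2 CPM across posterior B, G and R.

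Markers of neuronal maturity were mostly higher in the anterior libraries, where cntn2, cntn1a, l1cama, ank2a and ank2b were higher too. Of 25 tested genes of a 30-gene list of differentiated neurons, 20 were higher in anterior cells. An unadjusted edgeR p under 0.05 was found for 11 of these 20. The groups were apart with anterior above in 12 and with posterior above in 2. Of the 12, mapta and INA (ENSDARG00000053248) had 0 reads in every posterior library, so this direction was built into their being tested. Of the 2, SNCG had at most 1 read in an anterior library, so its posterior direction was built in likewise. Of all genes tested, 4.21% had such a p with anterior higher. The share apart was 12.3% with anterior above and 9.57% with posterior above. The 6 with the smallest p among those apart were rtn1b, gap43, INA (ENSDARG00000053248), DPYSL3, STMN4 (ENSDARG00000043932) and nefmb. The gene rtn1b had 692.5 and 511 CPM in anterior B and G and 147 to 175 CPM in posterior libraries. For gap43, of the growth cone, the values were 999 and 1417 CPM against 378 to 553 CPM. DPYSL3, for a growth cone protein that binds tubulin, had 178 and 275 CPM against 23.6 to 68.4 CPM. The microtubule regulator STMN4 had 20.8 and 169 CPM against 0.45 to 17.2 CPM, so that anterior B lay close to posterior G. Of the filament genes, INA had 42.1 and 122 CPM against 0 in all posterior libraries, so that it was tested through its anterior level alone, and nefmb had 105 and 354 CPM against 0 to 71.8 CPM. The list summed to 9504 and 14460 CPM in anterior B and G and to 7772, 8671 and 7608 CPM across posterior B, G and R, with nefla, nefma, syt1b and 1 of the genes named INA at 0 in all libraries. Anterior G stood apart in this sum. The summed level of cntn2 and cntn1a was 151 CPM in anterior B and 98.0 CPM in anterior G, against 29.3, 13.0 and 40.9 CPM across posterior B, G and R. Of the 14 tested progenitor and cycling markers, 10 were higher in posterior cells, 3 with an unadjusted edgeR p under 0.05, against 2.28% of all genes in this direction. These were the cell division genes CCNB1 (128 to 173.5 CPM in anterior and 314 to 457 CPM in posterior libraries) and NUSAP1 (281 to 326 and 478 to 722.5 CPM), and the replication gene PCNA (859 to 876 and 1076 to 1450 CPM). The 4 higher in anterior cells, all with overlapping groups, were MCM5, SOX3, mki67 and FABP7 (ENSDARG00000007697). MCM5, also a replication gene, had 1264 and 435 CPM in anterior B and G against 298 to 613 CPM in posterior libraries. The part of neuronal maturity or cycling cells in the adhesion gene differences was not tested. The 15 cranial motor neuron markers summed to 3106 and 4008 CPM in anterior B and G and to 3861, 2502 and 3385 CPM across posterior B, G and R, with 1 of the genes named SLC5A7 at 0 throughout. ISL1 is a large part of that sum. Of the 13 tested, 9 were higher in anterior cells, 3 of them with an unadjusted edgeR p under 0.05 (4.21% of all genes), and 4 in posterior cells, 1 of them with such a p (2.28% of all genes). The groups were apart in 2, both with anterior above (12.3% of all genes). These were PRPH, for the filament protein peripherin, at 230.0 and 586 CPM in anterior B and G against 53.6 to 127 CPM (edgeR unadjusted p 0.00156, adjusted p 0.683), and the homeobox gene LHX4, at 142 and 272 CPM against 46.5 to 105 CPM (edgeR unadjusted p 0.0197, adjusted p 0.726). PHOX2A had the posterior p under 0.05, at 84.9 and 220.0 CPM against 106 to 1466 CPM, and its groups overlapped.

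**Figure D5:**
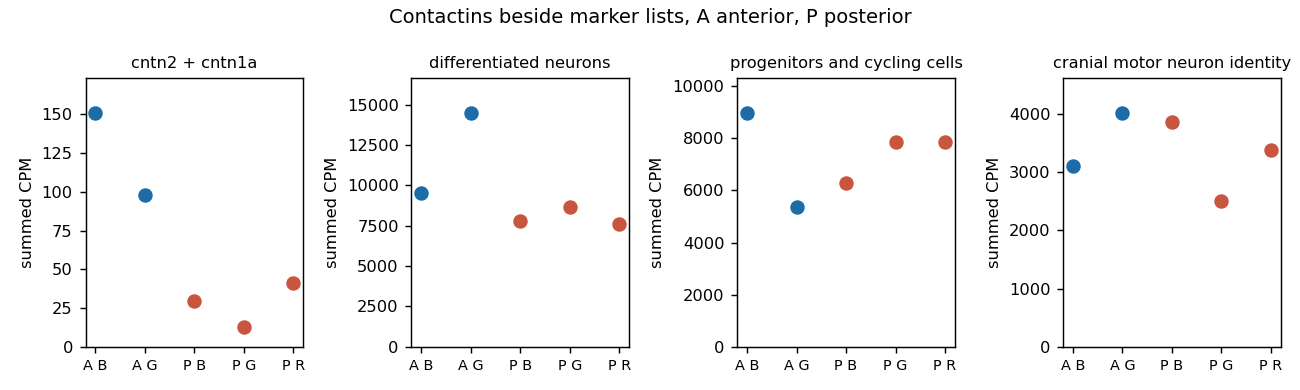
Summed TMM-normalised CPM (y axis, from 0) in each anterior (blue) and posterior (red) library of cntn2 with cntn1a, and of the lists of differentiated neurons, of progenitors and cycling cells and of cranial motor neuron identity. The contactin sum lies between 98.0 and 151 CPM in anterior and between 13.0 and 40.9 CPM in posterior libraries, the neuronal list is highest in anterior G, and the motor neuron list overlaps between groups.

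Several of these genes lie beside another immunoglobulin adhesion gene in the zebrafish genome, a property the choice of genes did not use. In the RefSeq table of the assembly GRCz12tu, cntn1b is the next protein-coding gene to nrcama, cntn1a to nrcamb, cntn2 to nfasca, chl1a to cntn3a.2 and ncam1b to cadm1b. NRCAM and NFASC are names in capitals, and the table of names does not say which duplicate each is. A contactin gene thus lay beside an L1-type gene in 4 of these 5 pairs. The neurofascin gene NFASC (ENSDARG00000061099) overlapped between groups, at 248 and 176 CPM in anterior B and G and 187, 167 and 95.9 CPM across posterior B, G and R, while those of cntn2 were apart.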

How the data were processed

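The authors deposited each library as raw read counts of Ensembl genes; the submitters' processing notes name bcl2fastq 1.8.4, TopHat2 2.1.0, HTSeq 0.6.1 and the build GRCz10. The use of strand is not given in the sources used here, so overlapping and antisense genes cannot be told apart. Reads aligned to several places, 16.6% to 20.3% of those counted, were outside the gene counts, as were those with no gene (9.17% to 9.97%) or more than 1 gene (0.819% to 1.03%). Groups came from the source names. A further anterior library was not analysed here.

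The counts were tested with the edgeR 4.0.16 quasi-likelihood test in R 4.3.3, with TMM factors, filterByExpr (minimum count 10, total 15), a two-sided threshold of 0.05 and Benjamini-Hochberg adjustment over all 11827 genes tested. The SE is the log2 fold change divided by the square root of F. The test was tried on simulated counts. Symbols were paired with 26121 of 31953 identifiers. All matched member genes are named, and list genes where the unadjusted p was under 0.05 and the groups did not overlap, up to 6 per list. ST8SIA2, ST8SIA4, l1camb, NFASC, FGFR2, CHAT, PHOX2A, TBX20, SLC18A3, ANK3, ank3b, the second PTPRG, CNTNAP2, MCM5, SOX3, mki67, FABP7, kdrl, mapta and SNCG were named after their values were seen. Some markers were left out of the motor neuron lists and are not reported here. The members and lists were chosen with earlier results of these data known. Alternatives used RLE factors, other filters, DESeq2 1.42.0, limma-voom (limma 3.58.1), the legacy edgeR fit, a replicate block and each library left out, 13 settings in which the 4 libraries without posterior R, fitted with no block, occur under both of the last.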

Additional observations from a re-analysis of the deposited data

How the results depend on the processing

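Of 104 log2 fold changes of the 8 tested genes under 13 alternatives, 4 had another sign, all with 1 library left out: alcamb (-0.43 without anterior G, -0.14 without posterior G, up to 0.70 without anterior B) and NCAM1 ENSDARG00000007220 (-0.064 without anterior B, -0.025 without posterior B, up to 0.78 without anterior G). Without posterior B, G and R, 2, 3 and 1 of the 8 genes had an unadjusted edgeR p under 0.05 (3 in the main fit). Of all genes, 867 of 11422, 502 of 11039 and 524 of 10770 had one. The groups were apart in 5 of the 8 each time. Groups apart in the main fit stay apart with a posterior library left out, save for rescaling, so this count adds nothing to the main fit. The share of 21.9% of all genes is from the main fit with all libraries, and fewer libraries are apart more easily. With 1 anterior library left, 10 genes enter and groups are apart more easily, so such counts are not given. A replicate block by letter, in the 4 libraries whose letters occur in both groups, left 0 of 8 genes with an unadjusted p under 0.05. Of all genes, 211 of 10770 had one. The same 4 with no block left 1, which is cntn2, against 524 of 10770 genes. The letters are not stated to mark shared embryos or days, and 2 pairs cannot show it. DESeq2 gave 1 gene, DSCAM ENSDARG00000028118, an adjusted p under 0.05 (log2 fold change 6.47). Leaving out an anterior library leaves 1 there, which is assumed to vary like the posterior ones. Zeros limit what can be seen: of genes averaging 30 to 100 CPM elsewhere, 2.57% to 13.8% had 0 reads in a library, the most in posterior B.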
